A study of Mus musculus with 3 samples.

Results

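The genes described here build and guard the attachment of chromosomes to the mitotic spindle. They were taken from the count table by name: the 17 rows whose symbol is Cenp followed by 1 letter, and 32 further genes of the outer kinetochore, the spindle checkpoint, the mitotic kinases, the spindle and cytokinesis, together 49 of 21782 genes. The rule itself uses names and no measured value. RNA-seq of polyA RNA was analysed from 3 clones of mouse embryonic fibroblasts (MEFs) of WT genotype, primary cells isolated from embryos at day 12.5 of gestation and grown in medium with 20% serum. The cultures were asynchronous, that is, they were not brought to a common stage of the cell cycle, and no treatment is given for any of them. Each clone is represented by 1 library, so a difference between clones and a difference between their cultures or libraries cannot be told apart. Whether the clones came from different embryos is not stated in the labels.

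The kinetochore is the protein structure that forms on centromeric chromatin, which carries the histone H3 variant CENP-A, and binds spindle microtubules. A kinetochore without microtubules recruits the checkpoint proteins MAD and BUB, which hold back CDC20, an activator of the ubiquitin ligase APC/C (anaphase promoting complex), until all chromosomes are attached. Aurora B, with its partners in the chromosomal passenger complex, releases faulty attachments, and Polo-like kinase 1 and Aurora A act on the assembly of the spindle. In cultured cells many of these genes are known to be transcribed mainly in G2 and mitosis, so that their level in an unsynchronised population depends on how many cells are in these stages.

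The libraries held 25261357, 22594316 and 24791198 counts in clones 1, 2 and 3, and the largest was 1.12 times the smallest. Values are given as CPM (counts divided by the library size and multiplied by 1000000), with a library size scaled with the trimmed mean of M values (TMM), on which 1 count was 0.0396 to 0.0443 CPM. The cells expressed the fibroblast genes Col1a1, at 25148 to 32052 CPM, and Vim, at 3789 to 4191 CPM, whereas Pdgfra, at 11.8 to 27.3 CPM, and Dcn, at 5.15 to 10.4 CPM, were low. The epithelial genes Epcam and Krt5 were at no more than 0.201 and 0.158 CPM, while Krt18 had 2.78, 2.97 and 5.31 CPM in clones 1, 2 and 3. Of the endothelial genes, Tie1 had no count in any clone, Pecam1 and Cdh5 were at no more than 0.665 and 0.266 CPM, and Kdr had 6.56, 9.49 and 12.4 CPM. Krt18 and Kdr were both higher in clone 3 than in the other clones by the exact binomial test used below, and their part in the results was not tested. All 11 macrophage genes examined were higher in clone 2, and their summed level was 398, 1871 and 330 CPM in clones 1, 2 and 3. The part of such cells in the results for clone 2 was not tested. In RNA from whole cultures, fewer cells of a type and less RNA per cell cannot be told apart.

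All 49 genes were detected in all clones, with counts between 45 and 3674. Their mean levels ran from 3.05 CPM for Cenpk to 139.5 CPM for Zwint, with a median of 27.2 CPM. Summed over the genes, their level was 1326, 2243 and 1983 CPM in clones 1, 2 and 3, or 0.130%, 0.224% and 0.202% of all counts. The sum was thus lowest in clone 1, as were the levels of 46 of the 49 genes, whether or not they passed a test.

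**Figure D1:**
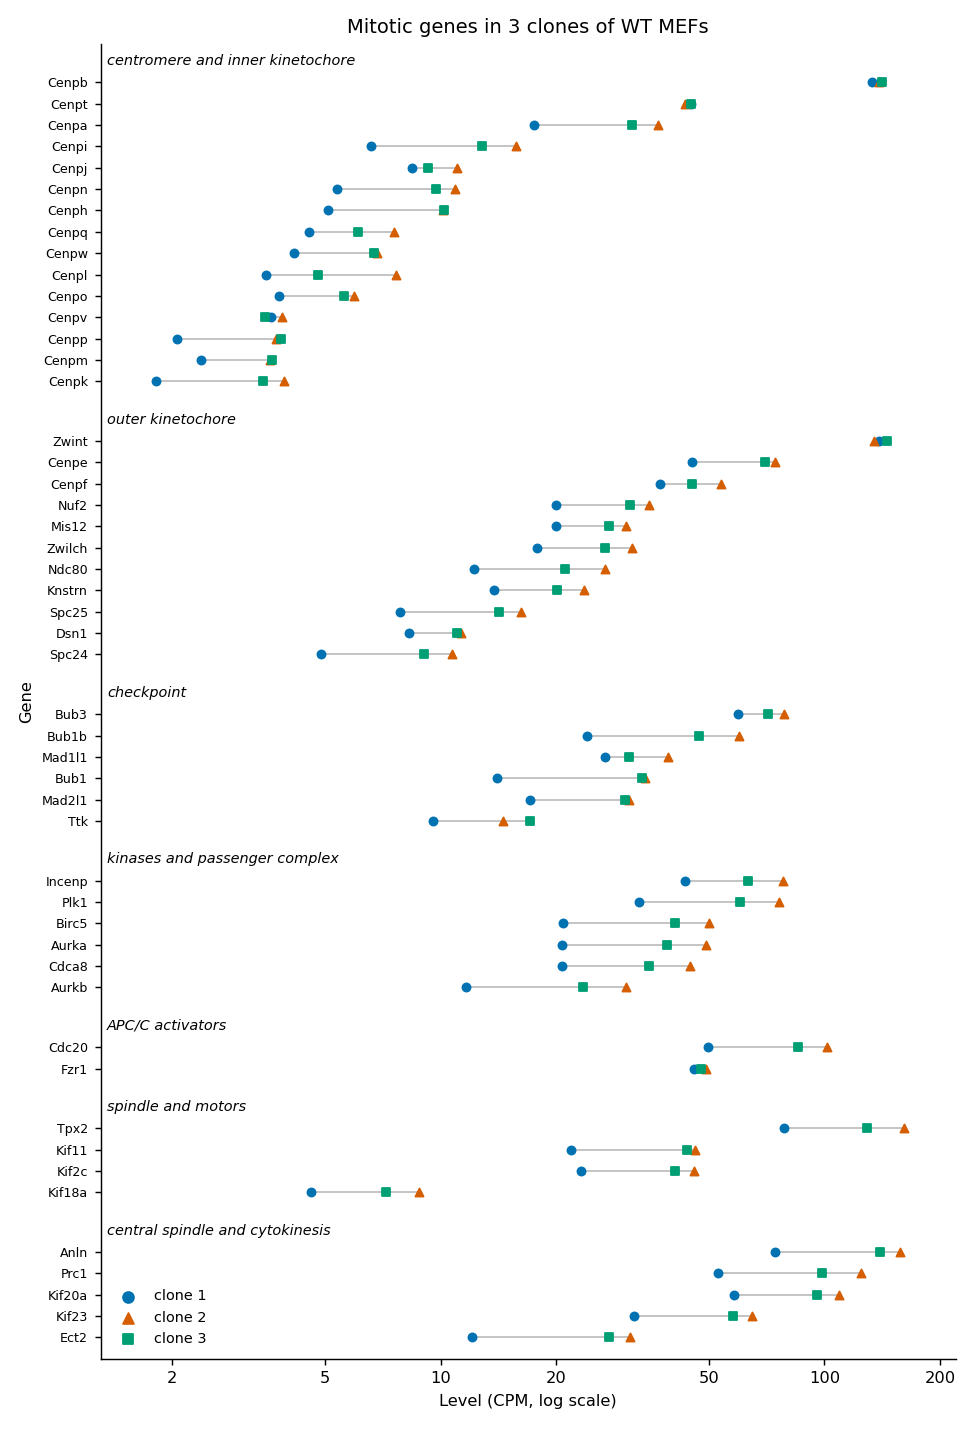
Level of each of the 49 genes in the 3 clones, in CPM on a log axis, with genes grouped by role and 1 point for each clone. The point of clone 1 lies left of the other points for 46 genes, that is, for all but Cenpt, Cenpv and Zwint. The points of these genes and of Cenpb and Fzr1 fall close together.

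To ask which genes differed between the clones, the 3 counts of every gene with at least 10 counts in each clone were compared with the scaled library sizes by a chi-square test, adjusted over 12218 genes. This test measures libraries against counting noise alone. Of the 49 genes 45 differed, or 91.8%, against 62.5% of all genes tested, since at this depth most genes pass. By size, 23 of 49, or 46.9%, were at least 2-fold apart between the highest and the lowest clone, against 7.93% of all genes. The median ratio of the highest to the lowest clone was 1.91 for the 49 genes and 1.24 for all genes tested. These counts rest on single clones: without clone 1, 24 genes differed and 0 of them were at least 2-fold apart, and without clone 2, 43 differed and 5 were at least 2-fold apart. They also rest on counting noise as the yardstick. When the spread of all genes between the clones was taken as the error, with the dispersion trend of edgeR, 3 of the 49 genes differed, namely Bub1b, Plk1 and Prc1, against 2.08% of all genes.

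The direction was nearly uniform. Of the 49 genes 44, or 89.8%, differed and were lowest in clone 1, against 27.1% of all genes tested, and 23, or 46.9%, were also at least 2-fold apart, against 3.08%. Of these 44 genes 40 were highest in clone 2 and 4 in clone 3. Pairs of clones were then compared gene by gene with an exact two-sided binomial test, adjusted by the Benjamini-Hochberg method over all genes with 10 counts in both clones. Lower in clone 1 than in clone 2 were 44 of 49 genes, or 89.8%, against 28.2% of all genes, and 0 were higher, against 24.4%. Lower in clone 1 than in clone 3 were 43, or 87.8%, against 23.7% of all genes, and 42 genes were lower in clone 1 than in both other clones. The 2 comparisons share clone 1 and are therefore not separate evidence. With the trended dispersion as the error in place of counting noise, 0 of the 49 genes were lower in clone 1 in either comparison, and 0 were lower in clone 2 than in clone 3. This dispersion was fitted to the 2 libraries compared, so that their difference itself counted as noise. No share of all genes was computed at this setting, and the 0 counts cannot tell the 49 genes from other genes. Clones 2 and 3 lay closer to each other. Higher in clone 2 than in clone 3 were 23 genes, against 16.4% of all genes, and lower was 1, Zwint, against 14.9%. Across the 49 genes the median ratio of clone 2 to clone 1 was 1.91, of clone 3 to clone 1 it was 1.68 and of clone 3 to clone 2 it was 0.883, where the medians of all genes were 0.01, 0.00 and 0.00 as log2 ratios.

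**Figure D2:**
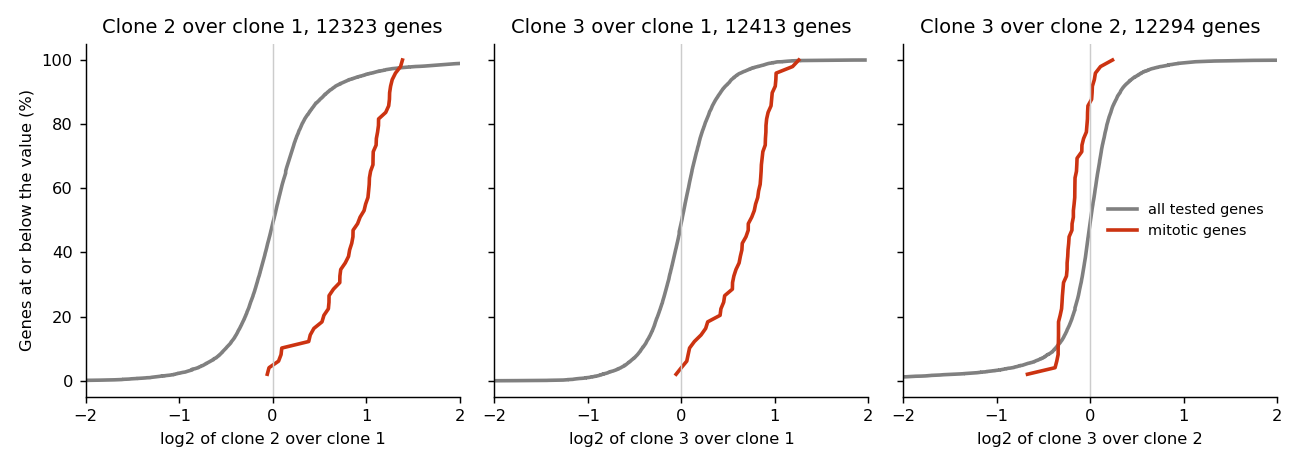
Cumulative share of genes against the log2 ratio of scaled counts in 3 pairs of clones, for the 49 genes in red and for all genes tested in grey (number in each title), drawn between -2 and 2. The curve of the 49 genes lies to the right of all genes for clones 2 and 3 over clone 1, at a median ratio of 1.91 and 1.68, and to the left for clone 3 over clone 2, at 0.883.

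The same holds for the deviation of log2(CPM + 1) from its mean over the clones, which had a median of -0.49, 0.35 and 0.17 over the 49 genes in clones 1, 2 and 3. For all genes whose mean reached 1 CPM these medians were -0.01, 0.00 and 0.01. Genes of other stages of the cycle moved with them. All 10 S phase genes examined, among them the helicase genes Mcm2 to Mcm7 and the nucleotide reductase gene Rrm2, were lower in clone 1 than in both other clones, with summed levels of 412, 849 and 699 CPM, and 7 of them were at least 2-fold apart. The 3 cell cycle inhibitor genes examined went the other way. Cdkn1a had 424, 342 and 379 CPM, Cdkn2a had 94.5, 37.0 and 44.3 CPM and Cdkn2b had 68.7, 32.3 and 40.9 CPM in clones 1, 2 and 3, and all 3 were higher in clone 1 than in both other clones by the exact binomial test. Of all genes tested 24.4% were higher in clone 1 than in clone 2. The ratio of the highest to the lowest clone was 1.24 for Cdkn1a, as was the median of all genes tested. The part of these inhibitor genes in the difference of the mitotic genes was not tested.

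Centromere and inner kinetochore genes were mostly low and varied most from gene to gene. Of these 15 genes 12 were lower in clone 1 than in clone 2, 6 were at least 2-fold apart, and the median ratio was 1.66. Cenpa encodes the centromeric histone on which the kinetochore forms (chr5:30666777-30674830, plus strand) and had 17.5, 36.9 and 31.5 CPM in clones 1, 2 and 3. Its level in clone 2 was 2.10 times that in clone 1 (95% interval 1.87 to 2.37, exact binomial test, adjusted p = 7.1e-37). Cenpi (chrX:134308084-134362639), a subunit of the inner kinetochore network that sits on CENP-A chromatin, had 6.60, 15.7 and 12.8 CPM. It was the gene of this group with the widest ratio, 2.38 (1.97 to 2.88). Cenpk, another subunit of that network, had the lowest mean level of the 49 genes with 1.81, 3.90 and 3.44 CPM, and its 2.15-fold ratio had a wide interval of 1.49 to 3.16.

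Further network subunits behaved alike. Cenph had 5.07, 10.1 and 10.2 CPM, Cenpl 3.50, 7.63 and 4.79 CPM and Cenpn 5.35, 10.9 and 9.74 CPM, each at least 2-fold apart, although Cenpl did not pass the test between clones 1 and 3. Cenph, with a ratio of 2.01, was the last gene past 2-fold, and the motor gene Kif2c, with 1.97, the next below it. Cenpm, Cenpo, Cenpp, Cenpq and Cenpw were lower in clone 1 than in both other clones with ratios of 1.53, 1.57, 1.87, 1.66 and 1.65. Cenpj, whose product acts at centrioles rather than at the kinetochore, was lower in clone 1 than in clone 2 only, at 8.41 against 11 CPM.

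By contrast, 3 genes whose symbols also start with Cenp did not pass the test over the 3 clones. Cenpb encodes the protein that binds a sequence box in centromeric satellite DNA (chr2:131175182-131180067, minus strand) and had 133, 139 and 141 CPM. Cenpt encodes a DNA-binding subunit that links the inner kinetochore to the Ndc80 complex, and it had 45.0, 43.2 and 44.9 CPM. Cenpv had 3.62, 3.86 and 3.48 CPM. The intervals of the ratio of clone 2 to clone 1 were 0.995 to 1.10 for Cenpb, 0.882 to 1.05 for Cenpt and 0.784 to 1.45 for Cenpv, so that a 2-fold difference lay outside all of them. Cenpb passed the test between clones 1 and 3 alone, with a ratio of 1.06 (1.01 to 1.11).

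Per length, the subunits of the inner kinetochore also differed in level. In CPM per kb of merged exon, Cenpb was highest with 28.1 ± 0.878 (SD, n = 3) and Cenpk lowest with 0.584 ± 0.210. Cenpt and Cenpa had 12.2 ± 0.271 and 4.88 ± 1.70. Lengths were taken from the GENCODE M21 annotation of GRCm38, and since the isoforms used in these cells are unknown, the values were also divided by the length of a single transcript, the one that codes for the longest protein. On that scale Cenpa had 19.5 ± 6.82 CPM per kb. Cenpo, with 1.17 ± 0.266, then lay below Cenpk, with 2.51 ± 0.903.

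Outer kinetochore genes were lower in clone 1 than in clone 2 in 10 of 11 cases, and 3 were at least 2-fold apart. All 3 belong to the Ndc80 complex, the rod-shaped coupler of 4 proteins between kinetochore and microtubule. Ndc80 (chr17:71496100-71526857) had 12.2, 26.7 and 21.1 CPM in clones 1, 2 and 3, a ratio of clone 2 to clone 1 of 2.19 (1.91 to 2.53). Spc24 had 4.87, 10.7 and 9.07 CPM and Spc25 had 7.85, 16.2 and 14.2 CPM, with ratios of 2.19 and 2.07. Nuf2, the fourth subunit, had 19.9, 35.0 and 31.2 CPM and a smaller ratio of 1.76 (1.57 to 1.97). The intervals of the 4 ratios overlap. The order of the 4 subunits was the same in all clones but depended on the length used: per kb of merged exon it ran from Nuf2 (4.53 ± 1.24, SD, n = 3) over Spc25 (4.0 ± 1.37) and Spc24 (3.19 ± 1.17) to Ndc80 (3.08 ± 1.13), and per kb of transcript Ndc80 (9.10 ± 3.33) moved to the place after Nuf2 (11.9 ± 3.26). Spc24 shares 11.1% of its transcript with a repeat found in other genes, and its counts are less certain for that reason.

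None of the other outer kinetochore genes was 2-fold apart. Dsn1 and Mis12 encode subunits of the Mis12 complex, which joins the inner to the outer kinetochore, and had ratios of 1.36 and 1.52. Mis12 had 20.0, 30.3 and 27.5 CPM. Cenpe encodes a kinesin that carries chromosomes to the spindle equator and had 45.2, 74.5 and 70.0 CPM, and Cenpf, which encodes a large protein of the outermost layer, had 37.2, 53.7 and 45.3 CPM. Zwilch, part of the complex that brings dynein to the kinetochore, had a ratio of 1.77, and Knstrn, which encodes a spindle and kinetochore protein, 1.71. Zwint, whose product lies beside the checkpoint platform KNL1, had the highest mean level of the 49 genes with 138, 135 and 145 CPM, although Tpx2, Anln and Cenpb were above it in clone 2. It differed by 1.08 times at most and was highest in clone 3, as was Cenpb. Its intervals were 0.928 to 1.02 for clone 2 over clone 1 and 1.0 to 1.10 for clone 3 over clone 1. In CPM per kb of merged exon Zwint had 31.5 ± 1.23 and Cenpf, the lowest of the group, 2.94 ± 0.534. Per kb of transcript Dsn1, with 3.87 ± 0.629, lay below Cenpf, with 4.08 ± 0.740.

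All 6 spindle checkpoint genes were lower in clone 1 than in both other clones, with a median ratio of 1.80, but 2 of them stood out. Bub1, a kinase that recruits the other checkpoint proteins (chr2:127801122-127831865, minus strand), had 14.0, 34.1 and 33.5 CPM, so that clones 2 and 3 were close (ratio 0.983, 95% interval 0.891 to 1.09) and both lay above clone 1 (clone 2 over clone 1 2.43, 2.14 to 2.76, exact binomial test, adjusted p = 5.8e-45). Bub1b encodes BUBR1, the relative of BUB1 in the complex that inhibits CDC20 (chr2:118598211-118641591, plus strand), and had 24.1, 59.9 and 47.2 CPM. Its ratio of clone 2 to clone 1 was 2.49 (2.26 to 2.74, exact binomial test, adjusted p = 6.8e-82), and in contrast to Bub1 it was lower in clone 3 than in clone 2 (0.788, 0.729 to 0.853). The share of Bub1 in the counts of both genes was accordingly 36.9% in clone 1, 36.3% in clone 2 and 41.5% in clone 3, with 95% Wilson intervals of 33.8 to 40.0%, 34.3 to 38.4% and 39.4 to 43.7%. Per kb of merged exon it was 37.8% ± 2.87 (SD, n = 3).

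Mad2l1 encodes MAD2, which changes shape on MAD1 to bind CDC20, and had 17.1, 31.0 and 30.2 CPM with ratios of 1.82 and 1.77 over clone 1. Mad1l1, which encodes its partner MAD1, varied less, with 26.7, 39.1 and 30.9 CPM. The share of Mad2l1 in the counts of the pair was 39.0% (36.1 to 41.9%), 44.2% (41.8 to 46.7%) and 49.4% (47.0 to 51.9%) in clones 1, 2 and 3, so that the intervals of clones 1 and 3 were separate. Per kb of merged exon the share was 21.7%, 25.6% and 29.8%. Ttk encodes MPS1, the kinase at the head of the checkpoint, and had 9.54, 14.5 and 17.1 CPM. It was the only checkpoint gene whose highest value was in clone 3, though clones 2 and 3 did not pass the test between them (1.18, 1.02 to 1.37, exact binomial test, adjusted p = 0.071). Bub3, the partner that brings BUB1 and BUBR1 to the kinetochore, had 59.5, 78.7 and 71.2 CPM and the smallest ratio of the group, 1.32 (1.23 to 1.42). Bub3 thus made up 71.2%, 56.8% and 60.1% of the counts of Bub3 and Bub1b in clones 1, 2 and 3. Per kb of merged exon its share was 60.1%, 44.5% and 47.9%, and per kb of transcript 80.3%, 68.5% and 71.4%. Which of the 2 mRNAs was more abundant in clones 2 and 3 therefore depended on the length used.

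Mitotic kinases and the chromosomal passenger complex had the highest median ratio of any role, 2.35. All 6 genes were lower in clone 1 than in both other clones, 5 were at least 2-fold apart, and all 6 were also higher in clone 2 than in clone 3. Plk1 encodes Polo-like kinase 1 (chr7:122159439-122169873, plus strand) and had 33.0, 76.3 and 60.3 CPM in clones 1, 2 and 3. Its ratio of clone 2 to clone 1 was 2.31 (2.13 to 2.52, exact binomial test, adjusted p = 1.4e-91). Aurka, the spindle pole kinase Aurora A (chr2:172356190-172370535, minus strand), had 20.7, 49.3 and 38.9 CPM and a ratio of 2.38 (2.14 to 2.65). Aurkb, which encodes Aurora B, the kinase of the passenger complex (chr11:69045647-69051664, plus strand), had 11.6, 30.5 and 23.5 CPM. With a ratio of 2.62 (2.28 to 3.02, exact binomial test, adjusted p = 1.4e-45) it had the largest estimate of all 49 genes, within an interval that overlaps those of Aurka and Plk1.

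The pair of Aurora kinases kept a similar balance. Of the summed counts of Aurka and Aurkb, Aurka took 64.0% (60.6 to 67.3%), 61.8% (59.5 to 64.0%) and 62.4% (59.95 to 64.7%) in clones 1, 2 and 3, and 66.2% ± 1.10 (SD, n = 3) per kb of merged exon. Of the partners of Aurora B, Birc5, which encodes survivin, had 20.9, 50.1 and 40.8 CPM (ratio 2.40, 2.16 to 2.67), and Cdca8, which encodes borealin, 20.7, 44.7 and 34.9 CPM (2.16, 1.94 to 2.41). Incenp, the scaffold that binds the kinase, had 43.3, 78.0 and 63.3 CPM and a ratio of 1.80 (1.67 to 1.94), whose interval lies below those of Aurkb and Birc5. Incenp was the most abundant of the 4 per kb of merged exon with 14.2 ± 4.01 CPM (SD, n = 3), and Birc5 per kb of transcript with 39.3 ± 15.8, so no order of these mRNAs is given.

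The APC/C activators parted ways. Cdc20, which drives the APC/C in mitosis and is the target of the checkpoint (chr4:118432901-118437352, minus strand), had 49.6, 102 and 85.1 CPM in clones 1, 2 and 3. Clone 2 was 2.05 times clone 1 (1.91 to 2.20, exact binomial test, adjusted p = 2.5e-94). Fzr1 encodes CDH1, which takes over from CDC20 at the end of mitosis and keeps the APC/C active in G1 (chr10:81366222-81378516, minus strand), and had 45.8, 49.0 and 47.6 CPM. The ratio of clone 2 to clone 1 was 1.07 (0.985 to 1.16, exact binomial test, adjusted p = 0.17) and that of clone 3 to clone 1 was 1.04 (0.959 to 1.13), so that a difference as large as that of Cdc20 lay outside both intervals. Cdc20 made up 52.0% of the counts of the pair in clone 1 (49.99 to 54.0%), 67.4% in clone 2 (65.8 to 69.0%) and 64.1% in clone 3 (62.5 to 65.7%). Per kb of merged exon the share was 72.2%, 83.3% and 81.1%, with a mean of 78.9% ± 5.84 (SD, n = 3), so Cdc20 was the more abundant mRNA per length in all clones.

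**Figure D3:**
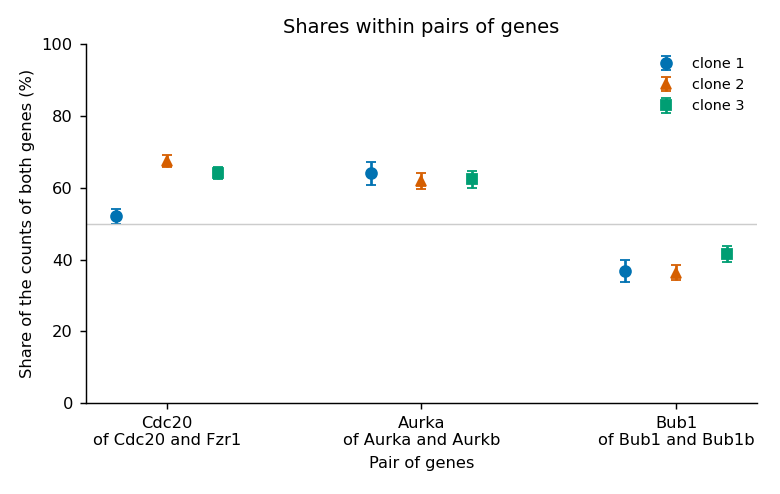
Share of the first gene in the counts of both genes of 3 pairs, in percent, for each clone, with 95% Wilson intervals as bars. The share of Cdc20 is 52.0% in clone 1 and 67.4% and 64.1% in clones 2 and 3, whereas that of Aurka stays between 61.8% and 64.0%.

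All 4 spindle and motor genes were lower in clone 1 than in both other clones, with a median ratio of 2.01. Tpx2, which encodes the activator of Aurora A on spindle microtubules, was the most abundant of them with 78.6, 161 and 129 CPM and a ratio of 2.05 (1.94 to 2.17). Kif11 encodes Eg5, the motor that pushes the spindle poles apart, and had 21.9, 46.1 and 43.9 CPM, with ratios of 2.11 and 2.01 over clone 1. Kif2c, which encodes the microtubule depolymerase MCAK, had 23.2, 45.8 and 40.9 CPM. Kif18a, a motor that dampens chromosome movements at the equator, was low with 4.59, 8.78 and 7.21 CPM and a ratio of 1.91 (1.51 to 2.43). Per kb of merged exon, Tpx2 had 26.3 ± 8.90 CPM and Kif18a 0.698 ± 0.215 (SD, n = 3).

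All 5 genes of the central spindle and cytokinesis were lower in clone 1 than in both other clones as well, with a median ratio of 2.11, and 4 were at least 2-fold apart. Ect2, the exchange factor that activates RhoA at the cell equator (chr3:27097222-27153878, minus strand), had 12, 31.1 and 27.4 CPM, and its ratio of 2.58 (2.25 to 2.97, exact binomial test, adjusted p = 1.3e-45) was the one next to that of Aurkb. Prc1, which bundles the microtubules of the central spindle, had 52.8, 125 and 98.4 CPM (2.37, 2.21 to 2.53). Anln, which encodes the actin-binding protein anillin of the cleavage furrow, had 74.5, 157 and 139 CPM (2.11, 1.99 to 2.23). Kif23, the kinesin of centralspindlin, had 31.8, 64.6 and 57.6 CPM, and Kif20a, the kinesin that brings Aurora B to the midzone, 58.1, 109 and 95.4 CPM with the smallest ratio of the group, 1.88. Kif20a shares 34.7% of its transcript with Cdc23 on the opposite strand and Prc1 shares 28.2% with Rccd1 and Zfp940, and the strand setting of the authors' counting is not stated, so the counts of these 2 genes are uncertain. The same applies to Cenpo with 30.1% and Cenpp with 27.7%. Without the 5 genes that share 10% or more of their transcript, 40 differed and 21 were at least 2-fold apart.

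A list of members that textbooks describe as expressed through the whole cycle held Bub3, Fzr1, Mad1l1, Mis12 and Cenpb. It is given as a description only, since it was chosen with results of these data known. Of these 5 genes 3 were lower in clone 1 than in clone 2, against 28.2% of all genes tested. Lower in clone 1 than in clone 3 were 4 of the 5, against 23.7%. At least 2-fold apart were 0, against 7.93%, and the median ratio was 1.32, against 1.24. Of the other 44 genes 41 were lower in clone 1 than in clone 2, and 39 were lower in clone 1 than in clone 3. At least 2-fold apart were 23 of the 44 genes, whose median ratio was 2.02. Among these 44, Zwint, Cenpt and Cenpv did not pass the test between clones 1 and 2, and Cenpj, Dsn1 and Cenpf, with ratios of 1.31, 1.36 and 1.44, lay below Mis12 with 1.52.

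**Figure D4:**
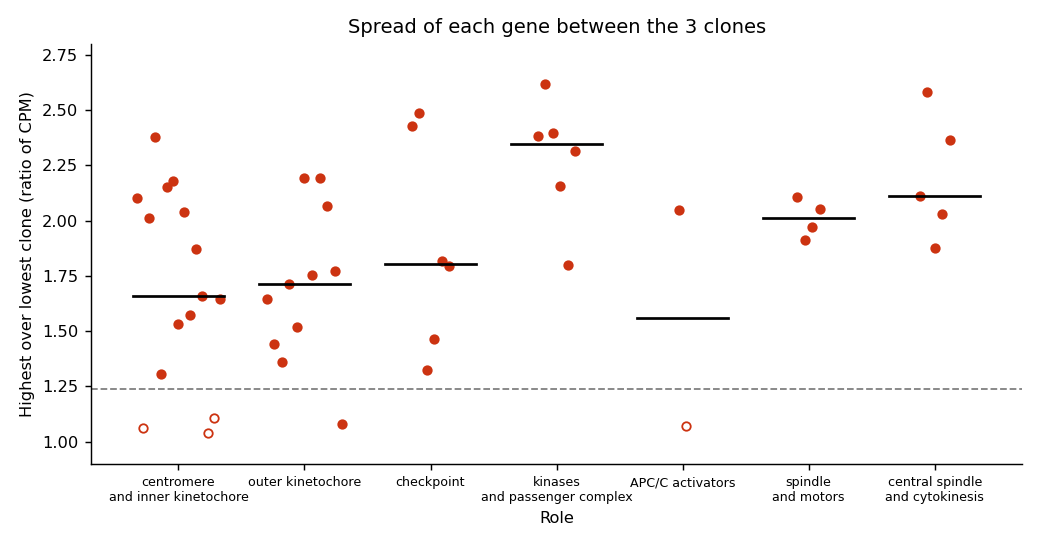
Ratio of the highest to the lowest clone for each gene, by role, with the median of each role as a solid line and that of all genes tested, 1.24, as a dashed line; filled points passed the chi-square test and the 4 open points did not. Role medians run from 1.56 for the APC/C activators to 2.35 for the kinases and passenger complex, and Aurkb has the highest ratio, 2.62.

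The promoters of these genes were examined for sequence words that promoters of G2 and M phase genes are known to carry. The cell cycle genes homology region (CHR) is the word TTTGAA or TTCGAA on either strand, which is bound by the DREAM and MYB-MuvB complexes, and it often lies close to the transcription start. Start-site windows of RefSeq (GRCm38.p6), with 250 bases before and 50 after the start, were at hand for 43 of the 49 genes, and those of Spc24, Zwilch, Aurkb, Incenp, Tpx2 and Kif20a were not analysed here. A CHR word lay within 50 bases of a start, on either side, in 19 of 43 genes, or 44.2%, against 4.26% of the 9317 genes that were tested and had a window. The distance of 50 bases was chosen after the positions in these genes had been seen. Over the whole window the shares were 51.2% and 16%. The 30 bases that hold the word are shown for 13 of the genes whose values are given above, on the strand of the gene and with the word in capitals (TTCAAA is TTTGAA on the other strand), beginning with kinases, the checkpoint and the APC/C activator and going on to the kinetochore, motors and cytokinesis.

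Plk1: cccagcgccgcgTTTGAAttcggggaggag
Aurka: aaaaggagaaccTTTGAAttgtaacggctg
Bub1: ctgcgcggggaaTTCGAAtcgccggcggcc
Bub1b: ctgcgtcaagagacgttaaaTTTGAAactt
Bub3: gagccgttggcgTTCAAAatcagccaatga
Cdc20: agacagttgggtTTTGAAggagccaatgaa
Cenpa: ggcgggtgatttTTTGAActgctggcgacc
Ndc80: gaaactttaaaaTTCAAAccgccttgggtt
Spc25: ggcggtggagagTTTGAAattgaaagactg
Kif11: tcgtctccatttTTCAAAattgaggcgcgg
Kif23: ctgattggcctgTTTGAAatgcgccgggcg
Prc1: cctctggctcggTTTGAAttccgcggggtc
Ect2: cgactggattttTTTGAAtcggaggcggca

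These stretches lie at chr7:122159453-122159482 (Plk1), chr2:172370521-172370550 (Aurka), chr2:127831828-127831857 (Bub1), chr2:118598231-118598260 (Bub1b), chr7:131560315-131560344 (Bub3), chr4:118437344-118437373 (Cdc20) and chr5:30666890-30666919 (Cenpa). Those of the other genes lie at chr17:71526811-71526840 (Ndc80), chr2:69206172-69206201 (Spc25), chr19:37376351-37376380 (Kif11), chr9:61946780-61946809 (Kif23), chr7:80294434-80294463 (Prc1) and chr3:27153822-27153851 (Ect2). Counting the first transcribed base as 1 and the base before it as -1, the word began at base -18 in Cdc20 and -5 in Prc1, and at bases 3, 15, 17 and 33 in Kif23, Bub1, Cenpa and Aurka. In Cdc20 and in Bub3 the word was followed on the same 30 bases by CCAAT, the box bound by NF-Y. In Kif23 it was preceded by ATTGG, which is CCAAT on the other strand.

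Genes with the word near the start were, in these clones, those with the larger ratios. All 19 were lower in clone 1 than in clone 2, with a median ratio of the highest to the lowest clone of 2.11 and a range of 1.32 (Bub3) to 2.58 (Ect2). Of the 24 genes without it 19 were lower in clone 1 than in clone 2, with a median of 1.65 and a range of 1.04 to 2.40. Counted the other way, 15 of the 20 genes at least 2-fold apart with a window carried the word near the start, or 75%, and 4 of the 23 under 2-fold, or 17.4%. The 4 were Bub3, Cenpf, Cenpw and Ttk, while Cenph, Cenpi, Cenpk, Cenpl and Birc5 were 2-fold apart without it. None of the 4 genes that did not pass the test over the clones, Cenpb, Cenpt, Cenpv and Fzr1, had it. Among tested genes that are not in the set, 40.7% of 378 genes with the word near the start were lower in clone 1 than in clone 2, against 27.3% of 8896 genes without it, and 9.79% against 2.52% were at least 2-fold apart and lowest in clone 1.

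**Figure D5:**
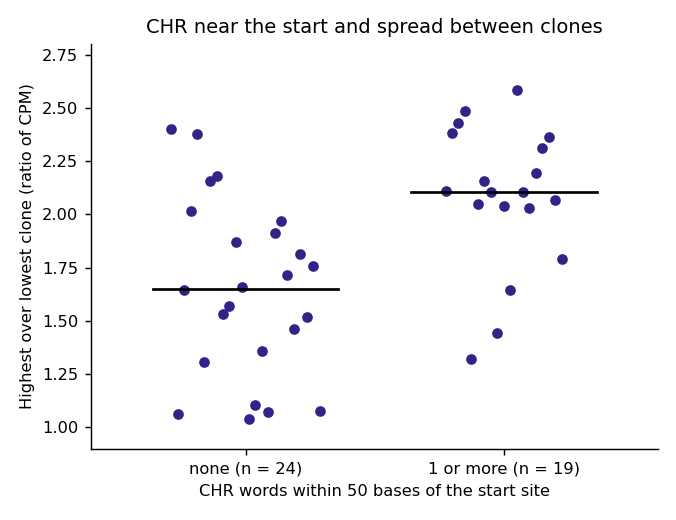
Ratio of the highest to the lowest clone for the 43 genes with a start-site window, without and with a CHR word (TTTGAA or TTCGAA, either strand) within 50 bases of the start, with the median of each class as a line. The 19 genes with the word have a median of 2.11, and the 24 genes without it have a median of 1.65.

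For the other words searched, on both strands, the shares were as follows. CCAAT lay within 50 bases of the start in 46.5% of the 43 genes and in 17.4% of tested genes, and GGCGC, the cell cycle dependent element (CDE) that can accompany a CHR, in 41.9% and 49.2%. By ratio, CCAAT near the start divided the genes much as the CHR did. It lay there in 15 of the 20 genes at least 2-fold apart, or 75%, and in 5 of the 23 under 2-fold, or 21.7%. None of the 4 genes that did not pass the test over the clones had it there, so this division is not particular to the CHR. For GGCGC the shares were 50% and 34.8%. A match of these letters is a description of the sequence and does not show that a factor binds there.

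Further genes of the same pathway, 52 in the table, gave a similar picture. Of these 52 genes 42 were lower in clone 1 than in clone 2, against 28.2% of all genes tested, and 3 were higher, against 24.4%. Lower in clone 1 than in clone 3 were 40, against 23.7%. At least 2-fold apart over the clones were 13, against 7.93%, and the median ratio was 1.79, against 1.24 for all genes tested. Kntc1, which encodes the ROD subunit of the complex that holds Zwilch, had the widest ratio, with 17.4, 47.9 and 35.4 CPM, and Casc5, which encodes the checkpoint platform KNL1, had 5.88, 14.6 and 13.1 CPM. The genes for mitotic cyclin and its kinase, Ccnb1 and Cdk1, had 37.1, 73.2 and 63.1 CPM and 49.5, 95.5 and 74.5 CPM. Of the 10 genes for core subunits of the APC/C 5 were lower in clone 1 than in clone 2, against 28.2% of all genes tested. The 10 genes differed less in size, and 0 were called and 1.5-fold apart, against 2274 of 12218 genes tested. The median ratio of the 10 genes was 1.15, against 1.94 for the remaining 42 and 1.24 for all genes tested. Of these 10 genes 9 passed the test over the clones, against 62.5% of all genes tested, with ratios of 1.36 at most. Higher in clone 1 than in clone 2 were Anapc7, the securin gene Pttg1 with 12.6, 9.40 and 9.94 CPM, and Cenpc1, the gene for the inner kinetochore protein CENP-C, with 44.6, 28.1 and 40.0 CPM.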

How the data were processed

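The authors sequenced polyA RNA as 86-nt single-end reads and, per their methods and the submitters' processing notes, aligned them (TopHat 2.0.0 with Bowtie 0.12.7; up to 5 positions and 2 mismatches per read), handled the alignments with SAMtools 0.1.16 and counted reads per gene with HTSeq. The methods name the build mm10 and the processing notes mm9. The annotation, the HTSeq version and the strand setting are not given in the sources used here. The authors deposited these as whole-number counts, not normalized, with 1 column for each clone.

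CPM were computed with TMM library sizes (edgeR 4.0.16, R 4.3.3). The 3 counts of each gene with at least 10 counts in every clone went into a chi-square test (Pearson, 2 degrees of freedom), and pairs of clones with an exact two-sided binomial test (scipy 1.17.1), with a threshold of 0.05 on Benjamini-Hochberg adjusted p-values. A quasi-likelihood test has no residual degrees of freedom within the clones, so the tests compare libraries, and their p-values measure counting noise. Intervals of 95% (exact for ratios, Wilson for shares) cover counting error only, since reads carry no molecular identifiers.

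Every member may be named. Values in every clone are given for the highest and lowest of each role, the 10 largest ratios, those not called and a list of key genes. The members, roles and lists were chosen with earlier results of these data known. Symbols were matched to GENCODE M21 and RefSeq tables for GRCm38 (21117 by symbol, 597 by synonym, 68 not), and these positions are by name, not from the authors' files. Shared transcript was found with BLAST 2.17.0 and exon overlap. Alternatives were DESeq2 1.42.0 size factors, total counts, other count minimums, other lengths, the trended dispersion and leaving out each clone. Of the sequences found, 13 are shown.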

Additional observations from a re-analysis of the deposited data

How the results depend on the processing

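Of 344 comparisons with other settings, 340 gave the same result, 3 passed the threshold in the same direction and 1 changed its sign. They covered mean CPM and log2 ratios of single genes, and 1 count of genes with a CHR. With 1 clone left out, a mean CPM counted as the same if it shifted by less than the SD over the clones. With 3 clones it cannot shift by more, so these comparisons test nothing. The log2 ratios were compared between library size scalings only, not with the trended dispersion. Scaling to total counts turned the log2 ratio of clone 3 over clone 1 of Cenpt to 0.050, and took Cenpb in clone 2 over clone 1 (0.09), Cenpl in clone 3 over clone 1 (0.50) and Zwint in clone 3 over clone 1 (0.12) past the threshold, and 2 genes in place of 1 were then lower in clone 2 than in clone 3. With the trended dispersion of edgeR as the error, which takes the spread of all genes between clones as noise, 3 genes differed in place of 45, and 3 in place of 23 were called and at least 2-fold apart. In pairs of clones, 0 in place of 44, 0 in place of 43 and 0 in place of 1 were then lower in clone 1 than in clone 2, in clone 1 than in clone 3 and in clone 2 than in clone 3. The counts of 44, 43 and 1 are those of the exact binomial test. The dispersion of each pair was fitted to the 2 libraries compared, so their difference itself counted as noise. Leaving out 1 clone gave 24 to 44 differing genes, with 24 when clone 1 was left out, and 0 to 22 at least 2-fold apart, with 0 without clone 1 and 5 without clone 2. With 1 clone left out, the median deviation ranged from -0.42 to -0.35 in clone 1, from 0.09 to 0.42 in clone 2 and from -0.09 to 0.35 in clone 3. In clone 1 it was -0.50 with total counts and -0.56 with a pseudocount of 0.1 CPM. The share of Cdc20 with Fzr1 was 72.7% per kb of transcript and 61.2% of undivided counts, and that of Aurka with Aurkb 63.3% and 62.7%. Leaving out 1 clone, the shares per kb of exon ran from 76.7 to 82.2% for Cdc20, from 65.6 to 66.6% for Aurka and from 36.1 to 38.8% for Bub1. Leaving out genes with shared transcript and the search over the whole promoter window were added after seeing the data. No paired analysis was possible because the libraries are of 1 group. With 1 library for each clone, a depth of 22594316 counts or more limits single genes little, except those below 10 CPM such as Cenpk, whose intervals are wide.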
